A study of Homo sapiens with 20 samples.

Results

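The genes described here are 10 chemokines that epithelial cells can make, chosen by gene symbol from the 60271 genes of the deposited table: CXCL1, CXCL2, CXCL3, CXCL5, CXCL8, CXCL10, CXCL16, CX3CL1, CCL20 and CCL28. They were measured by RNA sequencing in MDA-MB-468, a human triple negative breast cancer cell line of epithelial type that carries many copies of the EGF receptor gene. Cells were serum-starved and then either left untreated (control) or treated with 50 ng/mL epidermal growth factor (EGF) for 12, 24, 48 or 72 h, a treatment the study used to induce epithelial-mesenchymal transition (EMT). There were 4 biological replicates in each of the 5 groups, 20 libraries in all, and all groups were seeded and harvested together and share this 1 cell line. All 4 comparisons with the control share the same control libraries.

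Chemokines are small secreted proteins that attract leukocytes along a gradient. CXCL1, CXCL2, CXCL3, CXCL5 and CXCL8 (interleukin-8) attract neutrophils and act through the receptor CXCR2, and CXCL8 also through CXCR1. CXCL10 is induced by interferons and attracts activated T cells through CXCR3. CXCL16 and CX3CL1 (fractalkine) are made as membrane-anchored proteins that bind CXCR6 and CX3CR1, and are released from the surface by the proteases ADAM10 and ADAM17. CCL20 attracts cells that carry CCR6, and CCL28 is a chemokine of mucosal epithelia, the mammary gland among them, that binds CCR10 and CCR3. Transcription of many inflammatory chemokines is controlled by NF-κB proteins at κB sites close to the start of the gene, often together with AP-1 or C/EBP proteins, and their short-lived messages are cleared through AU-rich elements bound by proteins such as ZFP36.

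CXCL8, CXCL1, CXCL5, CXCL3 and CXCL2 lie within 359 kb of chromosome 4, CXCL10 lies 1922 kb beyond CXCL2 on the same chromosome, and the other members lie on chromosomes 2 (CCL20), 5 (CCL28), 16 (CX3CL1) and 17 (CXCL16). The stretches below are shown because they hold the κB letters closest to the start of the 7 members whose promoter contains any, which include each member that was near 0 in the control and rose under EGF. They were taken from RefSeq promoters (assembly GRCh38.p14, 250 bases before to 50 after the start site), which were found for 8 of the 10 members. None was found for CXCL16, which also rose under EGF, or for CX3CL1, so neither was searched. Positions are counted in bases from the RefSeq start site, the sequences run 5′ to 3′ along the gene's strand, and capitals mark matches to GGNNNTTCC on either strand.
CXCL8, chr4:73740449-73740528, plus strand: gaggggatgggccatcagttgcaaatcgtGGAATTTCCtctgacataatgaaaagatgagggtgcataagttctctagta
CXCL1, chr4:73869273-73869352, plus strand: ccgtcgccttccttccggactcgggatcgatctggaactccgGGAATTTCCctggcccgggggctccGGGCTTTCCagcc
CXCL3, chr4:74038730-74038809, minus strand: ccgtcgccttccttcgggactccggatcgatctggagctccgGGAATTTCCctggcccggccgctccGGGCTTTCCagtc
CXCL2, chr4:74099236-74099315, minus strand: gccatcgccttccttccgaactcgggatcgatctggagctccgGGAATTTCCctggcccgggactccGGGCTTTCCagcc
CXCL5, chr4:73998718-73998797, minus strand: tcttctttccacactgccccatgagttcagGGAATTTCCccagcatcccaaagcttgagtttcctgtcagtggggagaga
CXCL10, chr4:76023548-76023627, minus strand: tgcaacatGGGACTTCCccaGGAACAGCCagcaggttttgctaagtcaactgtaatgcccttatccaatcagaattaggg
CCL20, chr2:227813722-227813801, plus strand: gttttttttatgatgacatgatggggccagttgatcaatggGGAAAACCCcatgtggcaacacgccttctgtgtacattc
These stretches run from −120 to −41, except that of CXCL10, which runs from −130 to −51.

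CXCL1, CXCL2 and CXCL3 each held 2 matches, with the first at −78, −77 and −78 and the second at −53 in all 3, and the first lies in a run of 23 bases that the 3 promoters share, ctccgggaatttccctggcccgg. CXCL8 held 1 match at −91, CXCL5 1 at −90, CCL20 1 at −79 and CXCL10 3, at −176, −122 and −110. CXCL5 thus holds the same 9 letters as CXCL8 at nearly the same distance, although its counts were near 0 in every group. The κB letters occur in 20.1% of the 35116 promoters of this length, so a match alone is common. The AP-1 letters TGANTCA (7.71% of promoters) occurred in CXCL8 at −137, the C/EBP letters TTGCNNAA (10.5%) in CXCL2 at −188, and the interferon response letters AAANNGAAA (10.5%) in CXCL10 at −220, and no match of one motif overlapped another. Neither promoter of CCL28 held any of the 4. The annotation of the deposited IDs, GENCODE 29, begins CXCL8, CXCL2, CXCL3, CXCL5 and CCL20 upstream of the RefSeq start, and matches describe letters only, not binding.

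**Figure D1:**
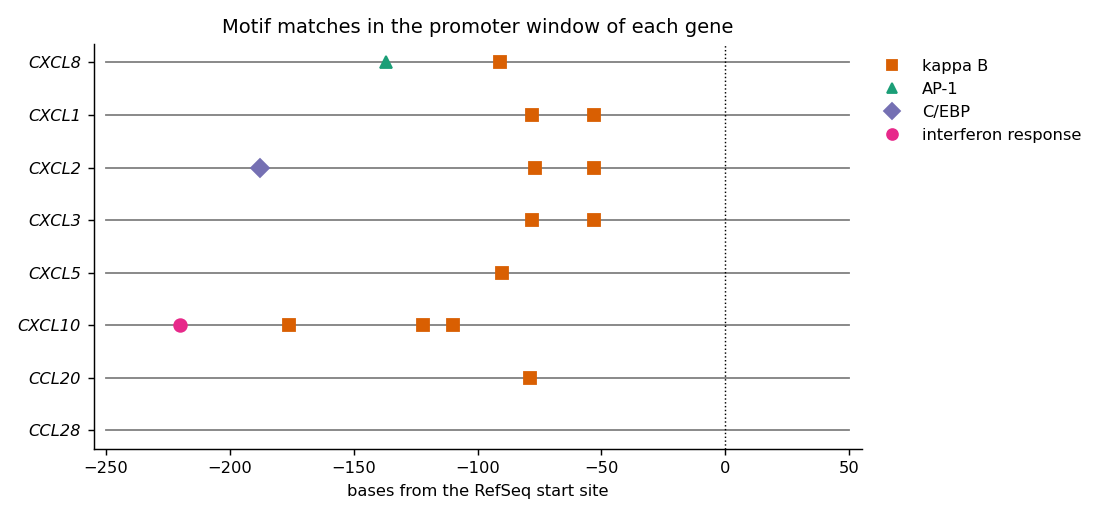
Matches to 4 sets of motif letters in the promoter window of 8 chemokine genes, in bases from the RefSeq start site (dotted line). The κB matches of CXCL1, CXCL2 and CXCL3 (squares) stand in a like pair at about −78 and −53, and CCL28 shows no match.

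Libraries held 15611961 to 25856953 counts, so that 3 counts correspond to 0.116 to 0.192 CPM (counts scaled to a common library total), and mitochondrial genes took 7.69% to 16.9% of the counts. CPM values were scaled with edgeR's TMM factors. The line showed its defining markers: EGFR was at 3354 to 12113 CPM, KRT18 at 683 to 5337 CPM, and PGR, a hormone receptor, had no count. The other receptors that define triple negative status were not absent at the RNA level, with ESR1 at 1.91 to 6.53 CPM and ERBB2 at 7.78 to 24.5 CPM. Markers of leukocytes, the usual source of several of these chemokines in tissue, were close to absent. PTPRC was at 0 to 0.304 CPM, and MPO, FCGR3B and CD3E had 1, 1 and 6 counts in all libraries together. The 7 leukocyte markers summed to 2.86 to 4.16 CPM without EGF, 1.97 to 2.63 CPM after 12 h, 3.20 to 4.35 CPM after 24 h, 6.70 to 9.28 CPM after 48 h and 6.20 to 7.25 CPM after 72 h, and 5, 4, 4, 5 and 7 of them had a count. CD14, at 0.860 to 6.69 CPM, contributed most. The part of these cells' markers and of the mitochondrial share in the chemokine values was not tested.

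Of the 10 members, 9 passed the filter on low values and were tested with all 16522 genes that passed. CXCL5 had 1 count in 20 libraries and was not tested. CXCL3, CXCL2 and CCL20 had fewer than 10 counts in every control library and passed through treated libraries, so the counts of members called are an account of the genes and not support for a pattern. At 12 h, 7 members were higher and 1 was lower than the control (edgeR quasi-likelihood test, adjusted p below the threshold of 0.05), against 32.9% and 36.5% of all genes tested. At 24 h, 5 were higher and 3 lower (29.2% and 29.6% of all genes), at 48 h 6 were higher and 2 lower (24.0% and 21.8%), and at 72 h 6 were higher and 2 lower (30.6% and 31.0%).

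The same 9 genes also differed between successive times. From 12 to 24 h none rose and 8 fell, against 27.9% and 25.9% of all genes. From 24 to 48 h 3 rose and 4 fell (25.9% and 24.3%), and from 48 to 72 h 6 rose and 1 fell (17.9% and 17.9%). Scaling by library size alone shifted the median log2 fold change of all genes at 12 h from -0.05 to -0.34, with 3581 genes higher and 8269 lower in place of 5433 and 6032. It left 6 members higher and 1 lower at 12 h.

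CXCL8 (ENSG00000169429, chr4:73740506-73743716, plus strand) showed the widest range of the members. Its level in the 4 control libraries was 1.21, 1.22, 2.18 and 1.68 CPM, from 24 to 51 counts each. After 12 h of EGF the libraries held 654, 671, 664 and 710 CPM. All 4 treated libraries lay far above all controls, with a coefficient of variation of 3.62% among themselves. The mean rose from 1.57 ± 0.460 to 675 ± 24.5 CPM (SD, n = 4), 427-fold with a 95% confidence interval of 228 to 800 (edgeR adjusted p = 1.63e-11). At 24 h the 4 libraries held 41.6, 101.6, 99.1 and 157 CPM, and at 48 h they held 38.7, 30.1, 51.5 and 42.2 CPM. The level had fallen at both steps, with all 24 h libraries below all 12 h libraries, while the 24 and 48 h groups overlapped. At 72 h the libraries held 201, 190, 128 and 138 CPM, all above the 48 h libraries, 4.05-fold higher (2.63 to 6.22, edgeR adjusted p = 5.30e-05). CXCL8 was still 25.7-fold above the control at its lowest treated point, 48 h (14.0 to 47.2, edgeR adjusted p = 1.10e-07), and 104-fold above it at 72 h (56.9 to 191, edgeR adjusted p = 4.55e-10). The order of the levels was thus 12 h, 72 h, 24 h, 48 h and control, in which 72 and 24 h could not be separated in the reported fit (edgeR adjusted p = 0.0509).

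CXCL1 (ENSG00000163739, chr4:73869393-73871242, plus strand), the next most abundant member at 12 h, followed the same order of rise and fall. The control libraries held 0.502, 0.588, 0.682 and 0.480 CPM, and the 12 h libraries 105.7, 98.1, 96.9 and 101.2 CPM. The groups did not overlap, and the rise was 176-fold (101 to 305, edgeR adjusted p = 7.77e-12). The 24 h libraries held 6.47, 15.4, 17.4 and 22.5 CPM, the 48 h libraries 7.75, 4.35, 7.06 and 5.93 CPM, and the 72 h libraries 20.4, 15.2, 11.6 and 12.2 CPM. Replicate 1 at 24 h was the lowest of its group for CXCL1, as it was for CXCL8 and CXCL3. CXCL1 was 11.0-fold above the control at 48 h (5.74 to 21.0, edgeR adjusted p = 5.45e-06) and rose 2.37-fold from 48 to 72 h (1.57 to 3.57, edgeR adjusted p = 0.00201). Levels at 24 and 72 h did not differ beyond their spread (15.5 ± 6.70 and 14.8 ± 4.06 CPM, edgeR adjusted p = 0.919).

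CXCL3 (ENSG00000163734, chr4:74036589-74038807, minus strand), whose protein is closely related to CXCL1 and CXCL2, was close to undetected without EGF. The 4 control libraries held 1, 1, 0 and 0 counts. At 12 h they held 132, 119, 96 and 156 counts, at 24 h 8, 19, 13 and 27, at 48 h 6, 10, 13 and 11, and at 72 h 48, 26, 27 and 22. Every treated library lay above every control library. With 2 control counts in all, the ratio to the control was 287 at 12 h with a counting interval of 78.9 to 2373, 39.8 at 24 h (10.6 to 335), 20.2 at 48 h (5.25 to 173) and 70.1 at 72 h (19.0 to 586), intervals that cover counting error only. Counts were higher in the treated groups, which were compared with each other. CXCL3 fell 7.12-fold from 12 to 24 h (edgeR adjusted p = 1.89e-09) and 1.96-fold from 24 to 48 h (edgeR adjusted p = 0.0107), and rose 3.41-fold from 48 to 72 h (2.26 to 5.14, edgeR adjusted p = 3.33e-05). All 5 groups differed from their neighbours in the order 12 h, 72 h, 24 h, 48 h, control in the reported fit. The call between 72 and 24 h (edgeR adjusted p = 0.0189) was lost without replicate 1 at 24 h (0.0794) or replicate 1 at 72 h (0.0657), and that between 24 and 48 h without replicate 4 at 24 h (0.0766).

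CXCL2 (ENSG00000081041, chr4:74097035-74099293, minus strand) departed from CXCL8, CXCL1 and CXCL3 in the timing of its highest level. The control libraries held 3, 6, 9 and 4 counts, and the mean level was 0.245 ± 0.102 CPM. After EGF the means were 0.971 ± 0.319 CPM at 12 h, 0.545 ± 0.206 CPM at 24 h and 0.713 ± 0.143 CPM at 48 h. At 72 h the libraries held 3.35, 2.22, 2.07 and 3.25 CPM. All 4 of these lay above every library of the other groups, 10.7-fold above the control (6.74 to 17.1, edgeR adjusted p = 2.36e-09) and 2.78-fold above 12 h (1.88 to 4.11, edgeR adjusted p = 4.61e-05). CXCL8, CXCL1 and CXCL3 were instead 4.10-fold, 6.75-fold and 4.10-fold lower at 72 than at 12 h. In the order of levels, 12 and 48 h (edgeR adjusted p = 0.194) and 48 and 24 h (edgeR adjusted p = 0.322) did not differ beyond their spread. CXCL2 was 1.80-fold lower at 24 than at 12 h (edgeR adjusted p = 0.0295), a call lost with library size scaling (edgeR adjusted p = 0.0659), with upper quartile scaling (0.0579) and without replicate 1 or 4 at 12 h or replicate 1, 3 or 4 at 24 h (0.0665 to 0.108). CXCL2 at 24 h was 2.15-fold above the control (edgeR adjusted p = 0.0156), a call lost without replicate 2 of that group (edgeR adjusted p = 0.0869). Reads of CXCL2 and CXCL3 can be confused in part. Of the 75-base windows of their transcripts, 7.07% and 4.57% occur in another gene, most often CXCL3 and CXCL2 respectively. The corresponding share was 0.245% for CXCL1 and 0 for CXCL8.

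CCL20 (ENSG00000115009, chr2:227805739-227817564, plus strand) stayed low in all groups, with at most 23 counts in a library. Its control libraries held 1, 2, 5 and 3 counts, and the 12 h libraries 8, 15, 11 and 20. At 24 h the counts were 3, 1, 1 and 4, at 48 h 2, 7, 19 and 10, and at 72 h 23, 21, 10 and 15. The gene was thus higher at 12 h (5.38-fold, 2.60 to 11.1, edgeR adjusted p = 1.34e-04), back within the control range at 24 h, where the fold change was 0.969 (0.357 to 2.63, edgeR adjusted p = 0.959), and highest in the mean at 72 h (6.90-fold, 3.41 to 14.0, edgeR adjusted p = 2.45e-05). The 48 h call (3.29-fold, edgeR adjusted p = 0.00910) did not hold without replicate 3 of that group (edgeR adjusted p = 0.0682). The rise of CCL20 from 48 to 72 h was called in the reported fit. That call was lost with library size scaling (edgeR adjusted p = 0.0551), no filter beyond 1 count (0.0644) and only the 8 libraries compared (0.0549). It was also lost with the DESeq2 Wald test (adjusted p = 0.0691) and in several edgeR fits without 1 library (0.0648 to 0.122). CXCL5 had a single count, in replicate 2 at 72 h, so no level above the limit of 3 counts (0.116 to 0.192 CPM) was detected in any library.

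**Figure D2:**
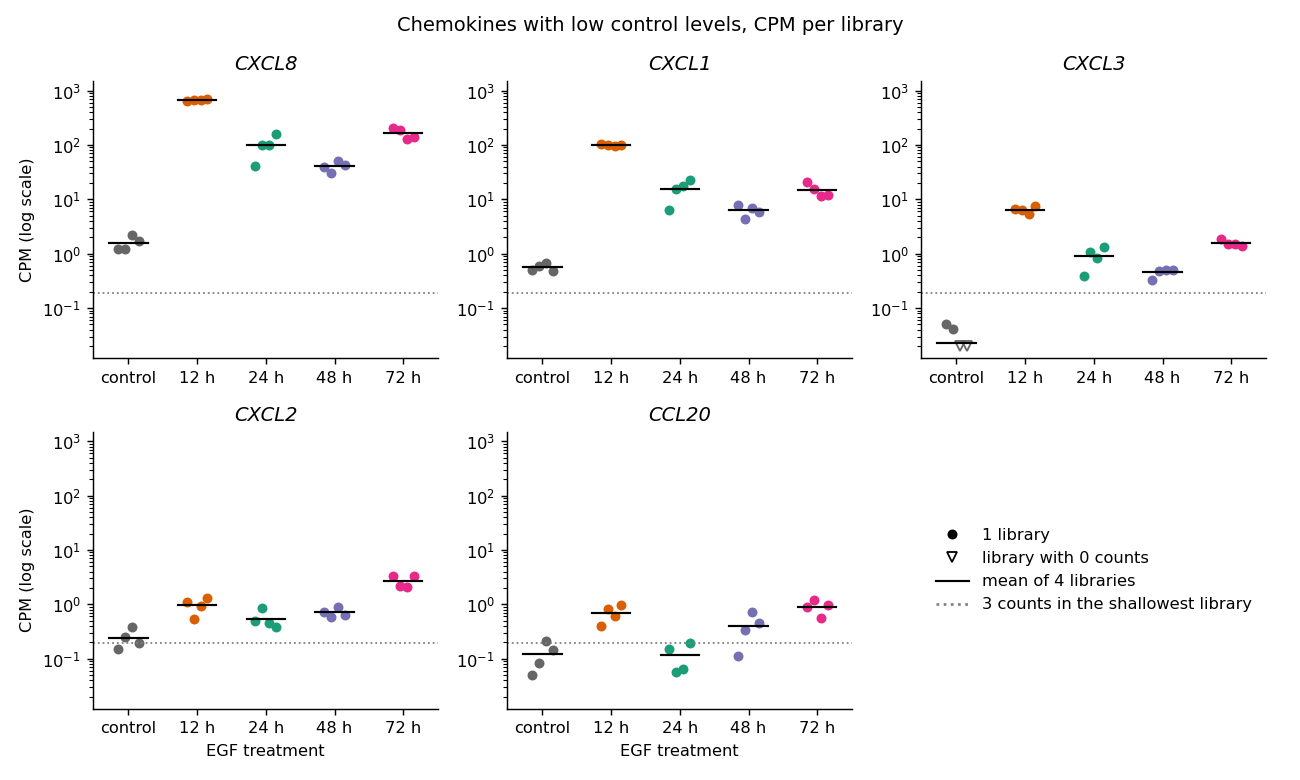
CPM of CXCL8, CXCL1, CXCL3, CXCL2 and CCL20 in each of the 20 libraries on a log axis, by EGF time, with group means as lines, libraries with 0 counts drawn as open triangles at the foot and 3 counts in the shallowest library as a dotted line. CXCL8, CXCL1 and CXCL3 peak at 12 h and turn up again at 72 h, whereas CXCL2 is highest at 72 h.

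The ratio of CXCL8 to CXCL1 counts does not depend on how libraries are scaled, and was computed after the values of both genes were seen. It was 2.40, 2.07, 3.19 and 3.50 in the control libraries, which rest on 10 to 16 CXCL1 counts each. It was 6.72 ± 0.365 at 12 h, 6.42 ± 0.543 at 24 h and 6.58 ± 1.07 at 48 h (SD, n = 4). These 3 treated groups overlapped, although CXCL8 was 16.6-fold lower at 48 h than at 12 h. At 72 h the ratio was 9.85 to 12.5 with a mean of 11.2 ± 1.10, so no 72 h library overlapped any other group. In 2-sided exact permutation tests of the log2 ratio, 12 h against control and 72 h against 48 h both gave p = 0.0286, the smallest that 4 against 4 libraries allow (0.0571 adjusted over 4 tests), 24 h against 12 h gave p = 0.429 and 48 h against 24 h p = 0.914.

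**Figure D3:**
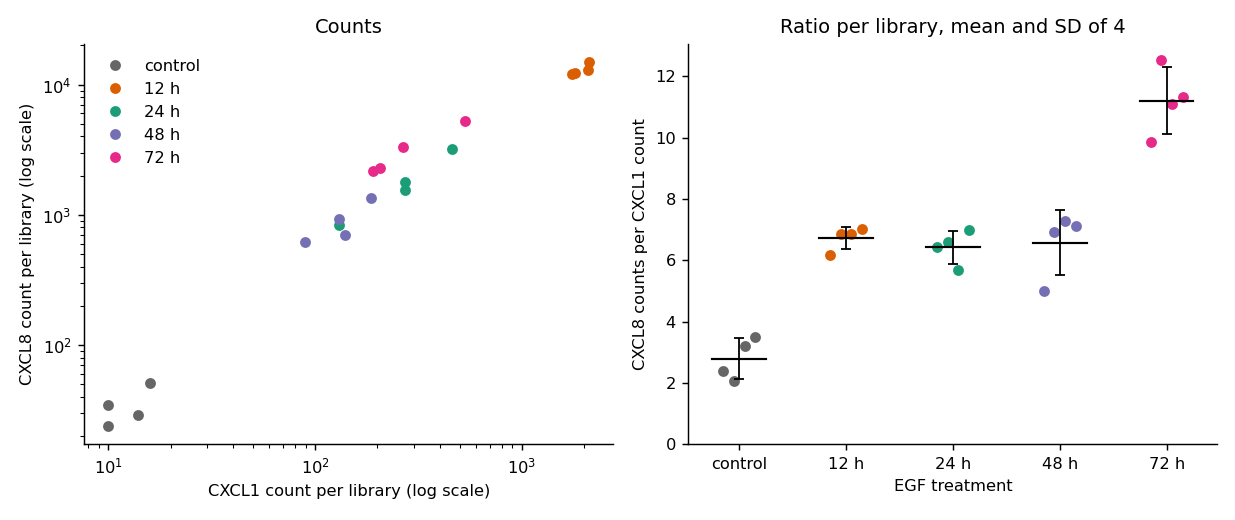
Left, CXCL8 against CXCL1 counts in each library on log axes; right, CXCL8 counts per CXCL1 count in each library, with the mean and SD of 4. The control libraries lie at 2.07 to 3.50, the 12, 24 and 48 h libraries at 4.99 to 7.29 and the 72 h libraries at 9.85 to 12.5.

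CXCL10 (ENSG00000169245, chr4:76021117-76023497, minus strand) moved differently from CXCL8, CXCL1, CXCL3 and CXCL2, which lie on the same chromosome. The control libraries held 2.46, 1.85, 1.92 and 2.21 CPM and the 12 h libraries 2.27, 2.29, 2.10 and 2.68 CPM, which overlap (0.16 with an SE of 0.21 on the log2 scale, edgeR adjusted p = 0.525). At 24 h the libraries held 0.198, 0.339, 0.512 and 0.536 CPM. All 4 were below all controls, 5.29-fold lower in the fit (-2.40 with an SE of 0.26 on the log2 scale, edgeR adjusted p = 3.09e-08). At 48 h CXCL10 had risen 3.80-fold again (2.57 to 5.60, edgeR adjusted p = 3.04e-06) to 1.83, 0.880, 1.63 and 1.68 CPM, and the 72 h libraries held 2.31, 1.99, 2.07 and 2.36 CPM. Levels at 48 h (edgeR adjusted p = 0.0654) and 72 h (edgeR adjusted p = 0.836) did not differ from the control past the threshold. All 4 libraries at 48 h lay below all controls, however. The 48 h level was called below the control without replicate 1 at 24 h (edgeR adjusted p = 0.0476) or replicate 1 at 48 h (0.0494). The rise from 48 to 72 h was called with DESeq2 size factors (edgeR adjusted p = 0.0446), with the replicate block (0.0406) and without either of those libraries (0.0366 and 0.0420), but not in the reported fit.

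The membrane-anchored chemokines were expressed in every library. CXCL16 (ENSG00000161921, chr17:4733526-4739922, minus strand) was at 36.2, 35.7, 30.0 and 29.5 CPM in control libraries, and the 12 h libraries held 97.4, 94.9, 92.7 and 97.7 CPM. The 12 h libraries were all higher, by 2.91-fold (2.58 to 3.29, edgeR adjusted p = 9.93e-14). The level then fell to 54.5 ± 4.23 CPM at 24 h and 38.8 ± 4.47 CPM at 48 h and was 50.8 ± 2.67 CPM at 72 h. The fall from 12 to 24 h (1.76-fold, edgeR adjusted p = 2.65e-08) and the rise from 48 to 72 h (1.31-fold, edgeR adjusted p = 7.64e-04) passed the threshold. At 48 h CXCL16 was 1.18-fold above the control (1.04 to 1.33, edgeR adjusted p = 0.0258), a call that was lost when only the 8 libraries compared were fitted (edgeR adjusted p = 0.119). MED11, a gene on the opposite strand, covers 3.04% of the exon bases of CXCL16.

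CX3CL1 (ENSG00000006210, chr16:57372458-57385048, plus strand) was at 60.5, 78.3, 60.9 and 68.3 CPM in control libraries, and the 12 h libraries held 78.3, 83.2, 79.8 and 82.9 CPM. The 12 h mean was 1.21-fold higher (1.08 to 1.35, edgeR adjusted p = 0.00327), but the groups overlapped, and scaling by library size alone turned the log2 fold change from 0.27 to -0.01 (edgeR adjusted p = 0.925). From 24 h on the gene was below the control in every library: 50.1 ± 3.24 CPM at 24 h (1.34-fold lower, edgeR adjusted p = 7.50e-05), 44.4 ± 3.32 CPM at 48 h (1.51-fold lower, edgeR adjusted p = 1.35e-06), then 38.5 ± 1.90 CPM at 72 h (1.74-fold lower, edgeR adjusted p = 6.70e-09). Neighbouring later times did not differ past the threshold (24 and 48 h, edgeR adjusted p = 0.0700; 48 and 72 h, edgeR adjusted p = 0.0524), although 72 h was called below 48 h with library size scaling (edgeR adjusted p = 0.00676), with upper quartile scaling (0.0289), with only the 8 libraries compared (0.0481) and without 1 library in 5 cases, and 48 h below 24 h without 1 library in 2 cases. By contrast, 72 h was below 24 h in the reported fit (1.30-fold, edgeR adjusted p = 5.82e-04). CXCL16 and CX3CL1, which share their mode of release, thus stood on opposite sides of the control at 24 and 72 h. At 48 h their means did so too, but the CXCL16 libraries overlapped the controls. Only 2 of its 4 libraries lay above all controls, and its call at 48 h was lost in several settings.

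CCL28 (ENSG00000151882, chr5:43376645-43412391, minus strand), the mucosal chemokine, was the most abundant member in the control and the only one lower at all 4 times. The control libraries held 119.7, 124.4, 135.4 and 124.7 CPM, and the 12 h libraries 36.4, 36.3, 35.7 and 39.5 CPM. The gene was 3.41-fold lower at 12 h (-1.77 with an SE of 0.067 on the log2 scale, edgeR adjusted p = 1.21e-16), 3.15-fold lower at 24 h (edgeR adjusted p = 5.15e-16), 2.34-fold lower at 48 h (edgeR adjusted p = 2.36e-13) and 3.19-fold lower at 72 h (edgeR adjusted p = 3.38e-16). No treated library reached the lowest control. The 24 h libraries lay between 39.6 and 40.3 CPM, and the 48 h libraries, at 53.5, 48.0, 54.8 and 59.3 CPM, were all above those of the other treated groups. CCL28 thus rose 1.35-fold from 24 to 48 h (edgeR adjusted p = 1.13e-05) and fell 1.37-fold from 48 to 72 h (edgeR adjusted p = 1.17e-05), the opposite order to that of CXCL8, CXCL1, CXCL3 and CXCL16 at the same steps. Levels at 24 and 72 h (edgeR adjusted p = 0.852) and at 72 and 12 h (edgeR adjusted p = 0.217) did not differ past the threshold. The 72 h level was called above that of 12 h in 4 other settings, among them library size scaling (0.30 on the log2 scale, edgeR adjusted p = 7.51e-04), as was the 24 h level (0.25, edgeR adjusted p = 0.00473).

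**Figure D4:**
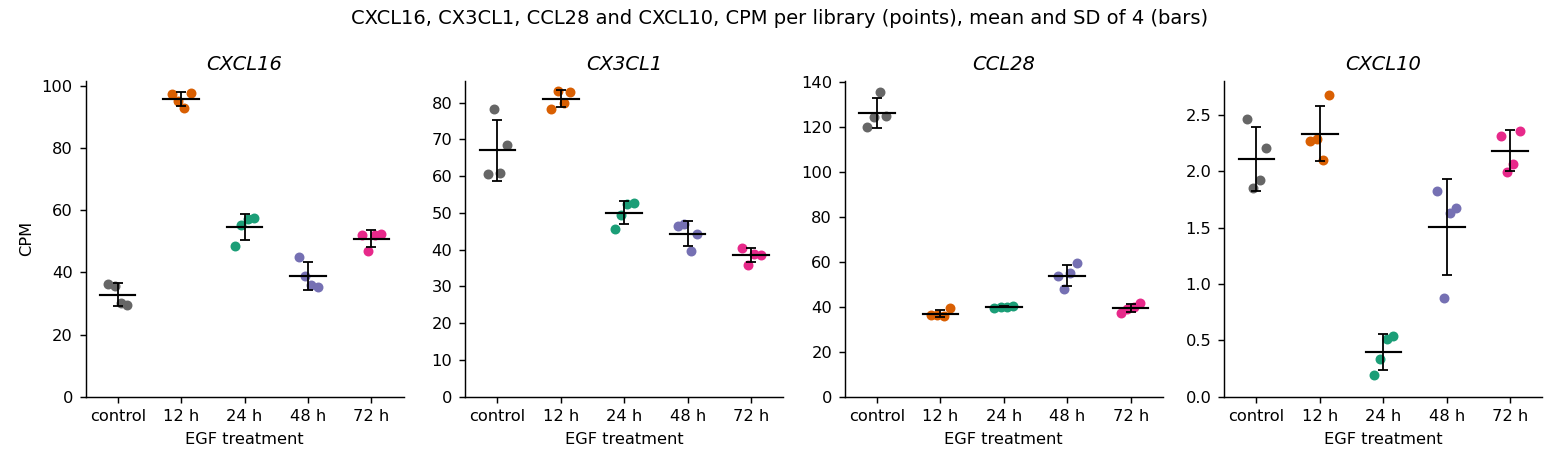
CPM of CXCL16, CX3CL1, CCL28 and CXCL10 in each library, with mean and SD of 4, on linear axes from 0. CXCL16 peaks at 95.7 CPM at 12 h, CX3CL1 declines after 12 h, CCL28 drops from 126 to 37.0 CPM by 12 h and CXCL10 is lowest at 24 h.

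**Figure D5:**
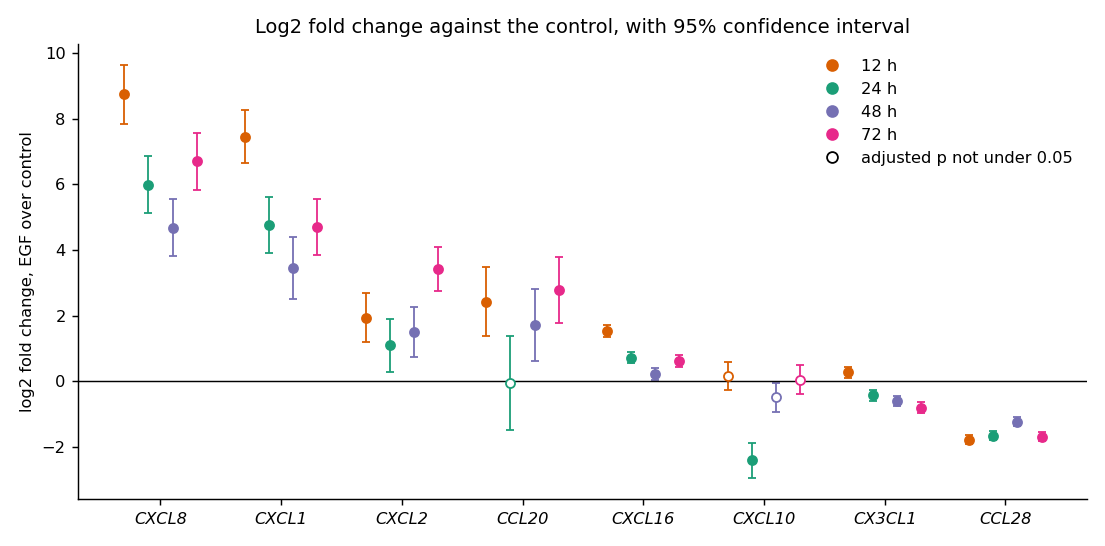
Log2 fold change of 8 members against the control at 12, 24, 48 and 72 h, with 95% confidence intervals and open circles where the edgeR adjusted p was not under 0.05. CXCL8 runs from 4.69 to 8.74 and CCL28 from -1.77 to -1.22, and CXCL3 is left out because its control held 2 counts.

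Levels of different genes were compared per kilobase of merged exon length. In the control, CCL28 led with 27.9 ± 1.46 CPM per kb, ahead of CXCL16 (11.8 ± 1.28) and CX3CL1 (11.2 ± 1.40), which overlapped, and CXCL10 had 1.79 ± 0.239 CPM per kb. CXCL8 (0.690 ± 0.202) and CXCL1 (0.435 ± 0.0711) followed. At 12 h the order on the same scale was CXCL8 (297 ± 10.8), CXCL1 (77.5 ± 3.03), CXCL16 (34.2 ± 0.847), CX3CL1 (13.6 ± 0.401) and CCL28 (8.17 ± 0.375), and CXCL3 (2.92 ± 0.401) stood above CXCL10 (1.98 ± 0.208). At 48 h, where CXCL8 was lowest among treated groups, CXCL8 (17.9 ± 3.90), CXCL16 (13.9 ± 1.60) and CCL28 (11.9 ± 1.03) lay close together, and at 72 h CXCL8 (72.3 ± 16.1) again led CXCL16 (18.2 ± 0.957) and CXCL1 (11.5 ± 3.13). No test was made between genes.

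The genes most like each member, by Pearson's r of log2 CPM over the 20 libraries among 13880 genes, are a description only, since the libraries share 5 groups. For CXCL8 they were PRSS23 (r = 0.987), FOSL1, which encodes an AP-1 subunit (0.987), and GLIPR1 (0.986). For CXCL1 they were TMC5 (0.991), KLF6 (0.990) and LYN (0.988), for CXCL3 CYTOR, EPHA2 and MIR4435-2HG (each 0.985), and for CXCL2 PSG6 (0.950), HERPUD1 (0.933) and CSF2, the granulocyte-macrophage colony-stimulating factor (0.930). CCL28 was most like FOXA1, a luminal epithelial transcription factor (0.994), CADPS2 (0.985) and LANCL2 (0.984). CX3CL1 was most like PRAG1, TCF7L1 and CDC42EP4 (0.979, 0.974 and 0.971), and CXCL16 like XPO6, ANXA11 and EFHD2 (0.987, 0.986 and 0.986). The values were lower for CXCL10 (AC005863.1, PARP9 and TXNRD1, 0.891, 0.887 and 0.883) and CCL20 (SP140L, EEF1AKMT3 and HSPA5, 0.881, 0.853 and 0.843).

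The other genes of the pathway were taken from lists chosen with earlier results known. Their counts of genes higher and lower stand beside 32.9% and 36.5% of all genes at 12 h, 29.2% and 29.6% at 24 h, 24.0% and 21.8% at 48 h and 30.6% and 31.0% at 72 h, and several lie near those shares. Of 12 receptors and surface partners of the members, 5 were tested. CXCR1, a receptor of CXCL8, had 2 counts in the control libraries together and was at 1.89 ± 0.395 CPM at 12 h and 4.80 ± 0.758 CPM at 72 h (edgeR adjusted p = 6.57e-13 at 72 h). It passed the filter through treated libraries, so CXCR1 could only be called higher than the control. CXCR2 had 13 counts in all libraries and was not tested. CX3CR1, the receptor of CX3CL1, was lower at 12 h (a log2 change of -0.43, edgeR adjusted p = 0.00160) and higher at 24 h (0.79, edgeR adjusted p = 7.56e-07) and 72 h (0.82, edgeR adjusted p = 3.70e-07). CCR3, a receptor of CCL28, fell from 1.17 ± 0.262 to 0.0768 ± 0.0628 CPM at 12 h (a log2 change of -3.82, edgeR adjusted p = 5.79e-08), while CCR10 had 9 counts in all. SDC1, a heparan sulfate proteoglycan that binds chemokines, was lower at all 4 times. SDC4, another such proteoglycan, rose from 61.2 ± 7.92 to 110 ± 2.70 CPM at 12 h (a log2 change of 0.84, edgeR adjusted p = 4.73e-08) and was lower at 24 and 48 h (-0.24 and -0.33, edgeR adjusted p = 0.0384 and 0.00822). Across the list, 2, 2, 1 and 2 genes were higher and 3, 3, 3 and 2 lower at 12, 24, 48 and 72 h, with median log2 fold changes of -0.43, -0.24, -0.33 and -0.15 beside -0.05, -0.01, 0.01 and -0.01 for all genes tested.

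Of 8 proteases and regulators that release or trim chemokines, 7 were tested. Of the 7, 1 had no control counts and passed the filter through treated libraries, so it could only be called higher. RHBDF2, a cofactor of ADAM17, rose from 10.4 ± 1.97 to 41.0 ± 2.42 CPM at 12 h (a log2 change of 1.97, edgeR adjusted p = 1.20e-12), and TIMP3, an inhibitor of ADAM17, fell (a log2 change of -1.55, edgeR adjusted p = 4.54e-10). TIMP3 was still lower at 24 h (-0.50, edgeR adjusted p = 0.00171) and was higher than the control at 48 h (0.58, edgeR adjusted p = 2.78e-04) and 72 h (0.36, edgeR adjusted p = 0.01198). ADAM17 itself was 0.29 higher on the log2 scale at 12 h (edgeR adjusted p = 0.00545), a call lost with library size scaling, and ADAM10 was at 0.03 (edgeR adjusted p = 0.733). In the list, 5 were higher and 1 lower at 12 h, which library size scaling turned to 2 and 2. The counts were 3 and 1 at 24 h, 4 and 0 at 48 h and 4 and 1 at 72 h, and the medians were 0.39, 0.25, 0.48 and 0.36.

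Of 13 cytokines that act upstream of chemokines, 8 were tested, and 5, 6, 8 and 8 of them were higher at 12, 24, 48 and 72 h and none lower. Of the 8, IL1A, IL1B and CSF2 had no control counts and passed the filter through treated libraries, so they could only be called higher. IL18 rose from 54.6 ± 7.23 to 330 ± 7.68 CPM at 12 h (a log2 change of 2.60, edgeR adjusted p = 1.76e-16), and LIF from 2.10 ± 0.473 to 71.4 ± 6.04 CPM (5.08, edgeR adjusted p = 2.99e-09). IL1A, IL1B and CSF2 were highest at 72 h, at 0.975 ± 0.235, 1.71 ± 0.237 and 6.38 ± 1.03 CPM. TNF, at 0.258 ± 0.113 CPM without EGF, did not pass the test at 12 h (0.238 ± 0.186 CPM, edgeR adjusted p = 0.796). By 72 h it had risen, with 1.18 ± 0.155 CPM (a log2 change of 2.15, edgeR adjusted p = 3.30e-05). TNF, low in the control, also passed the filter through treated libraries. Its call at 72 h and the counts of this list are thus not support for a pattern. The list medians were 2.49, 3.36, 1.80 and 3.31. With the genes that lacked control counts set against 3 counts over the group, or left out where they had no more than 3 themselves, they were 1.41, 2.33, 1.68 and 3.31.

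All 23 transcription factors and NF-κB inhibitors of the list were tested. At 12 h 18 were higher and 1 lower (13 and 3 with library size scaling), at 24 h 11 and 5 (5 and 8), at 48 h 9 and 4 and at 72 h 13 and 5, with median log2 fold changes of 0.60, 0.24, 0.19 and 0.34. RELA, the main activating NF-κB subunit, rose by 0.76 at 12 h (edgeR adjusted p = 3.60e-07). STAT3 rose by 0.40 (edgeR adjusted p = 5.55e-05) and CEBPB by 0.30 (edgeR adjusted p = 7.65e-04), 2 calls lost with library size scaling. Outside the naming rule, and chosen after their values were seen, NFKB2 rose by 1.92 at 12 h (edgeR adjusted p = 7.55e-16) and TNFAIP3, an inhibitor that NF-κB induces, was at 5.00 ± 0.239, 44.4 ± 1.47, 14.6 ± 3.50, 23.6 ± 4.66 and 56.0 ± 7.37 CPM without EGF and after 12, 24, 48 and 72 h. FOSL1 was at 2.78 ± 0.735, 248 ± 20.9, 82.0 ± 25.6, 25.6 ± 1.91 and 93.3 ± 17.0 CPM in the same order, the order of levels seen for CXCL8.

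Among 9 RNA-binding proteins that act on AU-rich messages, 8 were tested. ZFP36, which speeds the decay of such messages, rose from 33.8 ± 5.45 to 138 ± 3.40 CPM at 12 h (a log2 change of 2.02, edgeR adjusted p = 1.20e-13), and ZFP36L2 rose from 190 ± 18.1 to 1214 ± 12.2 CPM (2.67, edgeR adjusted p = 2.81e-14). In all, 7 were higher and 0 lower at 12 h (3 and 1 with library size scaling), 3 and 1 at 24 h (2 and 4), 2 and 5 at 48 h and 4 and 4 at 72 h, with medians of 0.36, 0.13, -0.33 and -0.02.

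Of 12 interferon response genes, 6 were higher and 3 lower at 12 h (3 and 5 with library size scaling), 3 and 6 at 24 h (3 and 8), 4 and 2 at 48 h and 8 and 2 at 72 h, with medians of 0.13, -0.33, 0.18 and 0.52. IFIT1, an antiviral protein, fell from 8.53 ± 1.24 to 0.637 ± 0.204 CPM at 12 h (a log2 change of -3.71, edgeR adjusted p = 1.93e-14) and was at 0.470 ± 0.0936 CPM at 24 h, when CXCL10 was lowest. OAS1 was higher at all 4 times (0.95, 1.11, 0.48 and 1.48). The 2 chemokines that share the receptor CXCR3 with CXCL10 were higher at 72 h, CXCL9 at 2.38 ± 0.436 CPM (4.80, edgeR adjusted p = 3.79e-11) and CXCL11 at 1.92 ± 0.490 CPM (3.03, edgeR adjusted p = 5.77e-08), while CXCL10 was at its control level. CXCL9 and CXCL11 were low in the control and passed the filter through treated libraries, so their calls are not support for a pattern.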

How the data were processed

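RNA was sequenced as single-end 75-base reads from Lexogen Corall mRNA libraries of 20 MDA-MB-468 cultures, 4 biological replicates in each of 5 groups. The authors deposited whole-number counts per gene for the genome build hg38. They were taken here as rounded estimated counts, because the deposited normalized values are not a constant multiple of them within a library, and DESeq2 is named in the submitters' processing notes. The aligner, the quantifier and the handling of molecular identifiers, which decides whether a count is a read or a molecule, are not given in the sources used here. The deposited normalized values, a score with a factor per gene and library, were used only in 1 alternative added after the data were seen. The deposited fold changes and p-values of the authors' comparisons were not used.

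Counts were filtered with filterByExpr, scaled with TMM factors and tested with edgeR 4.0.16 in R 4.3.3 (limma 3.58.1) by quasi-likelihood, with all 20 libraries in 1 fit and Benjamini-Hochberg adjustment over 16522 genes. Fold changes used edgeR's shrunken estimate, and intervals are 95%. Each SE was the size of the unshrunken log2 fold change divided by the square root of the test's F statistic. The intervals were centred on the shrunken estimate, and are approximate for large changes from few control counts. The alternatives, including DESeq2 1.42.0, are given in the closing section. In counts simulated for 12 h against control, the test called 177 of 200 changed genes and 8 unchanged genes, with 15769 genes tested. The simulation gave all genes the same spread and changed only those 200. It thus checked the code, and not the error rate at the spread and share of changed genes in these data. Replicates of a group varied 3.53 to 57.5 times more than sampling noise over 30 pairs, so none was counted as a duplicate. Named genes were the 10 members, called genes of short lists, the 4 most abundant called genes of longer lists (1 of them is not reported here) and the 3 genes most like each member (mean of at least 1 CPM). The members and lists were chosen with earlier results of these data known. Intervals for counting ratios and the limit of 3 counts cover counting error only.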

Additional observations from a re-analysis of the deposited data

Results flagged for a closer look

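In 45 groups of 4 libraries, 1 library stood apart from the other 3 by Dixon's criterion in 2 cases, where chance gives about 1 in 20 groups. CXCL3 in replicate 1 at 48 h was at 0.332 CPM, with the nearest library at 0.489 CPM, a difference of few counts. CXCL16 in replicate 2 at 72 h was at 46.8 CPM, with the nearest at 52.0 CPM.

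CX3CL1 was above the control at 12 h and below it at 24, 48 and 72 h. Tested directly against 12 h, its log2 fold change was -0.70 at 24 h (edgeR adjusted p = 1.40e-07), -0.87 at 48 h (edgeR adjusted p = 1.05e-09) and -1.07 at 72 h (edgeR adjusted p = 5.11e-11), and all 4 libraries of each later group lay below all 12 h libraries. The rise at 12 h did not hold with library size scaling, and its cause was not tested.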

How the results depend on the processing

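Of 942 fold changes of members recomputed with another setting that kept all libraries of the comparison, 879 kept their direction and side of the threshold. The 11 that turned direction had been small. With library size scaling CXCL10 was at -0.13 at 12 h and -0.0187 at 72 h against control and 0.11 at 72 h against 12 h, CX3CL1 at -0.0092 at 12 h, and CXCL1 and CCL28 at 0.0157 and 0.0469 at 72 h against 24 h. With upper quartile scaling CXCL10 was at -0.0047 at 12 h and 0.0421 at 72 h against 12 h, and CCL28 at 0.0035 at 72 h against 24 h, where it was 0.0316 with at least 10 counts in every library and 0.0422 with factors per gene. Leaving out 1 library moved CCL20 at 24 h between -0.40 and 0.36, CXCL10 at 72 h between -0.0019 and 0.14, and, at 72 h against 24 h, CXCL1 between -0.31 and 0.19 and CCL28 between -0.0471 and 0.0205, none of them called. CXCL8 at 72 h against 24 h passed the threshold in 6 other settings.

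With at least 10 counts in every library, which left 5 members, 5 were called at 12, 24, 48 and 72 h against control, 5 at 24 h against 12 h, 4 at 48 h against 24 h and 4 at 72 h against 48 h. Tested against a 1.5-fold change, 5 members were called at 24 h, 5 at 48 h, 3 at 48 h against 24 h and 3 at 72 h against 48 h, and all genes called numbered 5753, 3474, 1915, 3899, 2199, 1819 and 883 in the order of comparisons above. Fitting only the 8 libraries compared called 5 members at 48 h. Leaving out 1 library gave 8 to 8, 7 to 8, 7 to 9, 8 to 8, 7 to 8, 6 to 8 and 6 to 9 members called in that order. The rise of CXCL16 at 48 h was lost without control replicate 3 or 4 or replicate 1 at 48 h (edgeR adjusted p = 0.0820, 0.0992 and 0.133), and the difference of CCL20 between 24 and 48 h without replicate 3 at 48 h (edgeR adjusted p = 0.0644). The causes were not tested.

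Over all groups, replicate numbers did not pair the libraries: 13 of 40 same-number pairs correlated above 0.1, and 7 of 20 libraries correlated best with their own number. The exception was 12 and 48 h, where all 4 pairs did (0.152 to 0.377), and the block changed no call of the 9 members between these times. With the replicate block 8, 8, 8, 8, 8, 7 and 8 members and 11577, 9867, 7829, 10311, 9094, 8558 and 6175 genes were called in that order.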

Other observations

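Of 33 other chemokine genes in the table, 6 were tested, and 5, 3, 3 and 4 were higher and 0, 2, 1 and 1 lower than the control at 12, 24, 48 and 72 h, with median log2 fold changes of 1.35, -0.08, 0.58 and 1.77 beside -0.05, -0.01, 0.01 and -0.01 for all genes tested. Among all genes tested, 32.9%, 29.2%, 24.0% and 30.6% were higher and 36.5%, 29.6%, 21.8% and 31.0% lower at those times. CCL2, CXCL9 and CXCL11 were low in the control and passed the filter through treated libraries, so these counts are not support for a pattern. CCL2, which attracts monocytes, rose from 0.298 ± 0.120 to 2.51 ± 0.327 CPM at 12 h (edgeR adjusted p = 2.39e-07) and was at 0.0914 ± 0.0696 CPM at 24 h, below the control (edgeR adjusted p = 0.0297). CCL22, a ligand of CCR4, rose from 61.4 ± 10.1 to 151 ± 9.23 CPM at 12 h (edgeR adjusted p = 1.70e-11) and was at 33.8 ± 1.54, 29.2 ± 2.64 and 22.8 ± 2.47 CPM at 24, 48 and 72 h, below the control at each. CXCL17, a mucosal protein, rose from 6.83 ± 1.02 CPM to 31.6 ± 2.91 CPM at 72 h (edgeR adjusted p = 1.71e-13).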
